A study of Mus musculus with 6 samples.

Results

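The 9 genes described here, *Drd1*, *Drd2*, *Ppp1r1b*, *Adora2a*, *Rgs9*, *Pde10a*, *Isl1*, *Foxp1* and *Gpr6*, are genes known from the projection neurons of the striatum, the deep forebrain nucleus that lies against the cortex across the white matter. They were taken by symbol from a table of 34745 genes, where all 9 were found, as a check on tissue next to the dissected cortex. The table comes from RNA sequencing of mouse cerebral cortex at postnatal day 8. There were 3 Pen-2 cKO libraries, from mice with the genotype Pen-2 F/F (both *Psenen* alleles floxed) that also carried hGFAP-Cre, and 3 control libraries from Pen-2 F/F mice, labelled without the Cre. Both groups therefore carry the floxed alleles, and the transgene and the deletion cannot be told apart. The PEN-2 protein belongs to γ-secretase, a membrane protease that cleaves Notch receptors. The human GFAP promoter of this transgene is known to drive Cre in radial glia of the developing cortex, so cortical neurons as well as astrocytes can carry the deletion, while most striatal projection neurons arise from the ventral forebrain. The labels number the samples without tying a number to an animal. The p-values therefore measure only the spread between these samples, which may be technical.

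Striatal projection neurons are GABA neurons that receive dopamine and fall into a pair of classes. Direct pathway neurons carry the dopamine D1 receptor, which raises cyclic AMP, and indirect pathway neurons carry the dopamine D2 receptor, which lowers it, together with the adenosine A2a receptor, which raises it. Both classes use the same machinery to read cyclic AMP. The genes are not limited to the striatum: D1 receptor and DARPP-32 transcripts are known in deep cortical layers, *Foxp1* in cortical projection neurons and *Isl1* in cholinergic neurons of the basal forebrain. In bulk RNA, fewer cells of a type and less RNA per cell cannot be told apart.

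Levels are given as the authors' FPKM, which scales fragments by gene length and by library depth. The steps between low values implied 20251900 to 26809300 fragments per library. The targeted gene *Psenen* was 3.56, 3.90 and 4.03 FPKM in the Pen-2 cKO libraries and 6.35, 6.86 and 7.32 FPKM in the control libraries, and fell by 0.82 on the log2 scale (SE 0.09, limma adjusted p = 0.00441). Of 14147 genes tested across the table with limma on log2(FPKM + 0.1), 783 had an adjusted p under 0.05 (Benjamini-Hochberg), which is 5.53%. Of these calls 66.3% were higher in Pen-2 cKO, against 47.4% with median-ratio scaling, 48.5% with upper-quartile scaling and 78.8% when all libraries were given the same FPKM sum. The cortical excitatory neuron genes were present in every library, with a summed level of 385, 406 and 308 FPKM in Pen-2 cKO and of 376, 372 and 434 FPKM in control cortex. Of the markers of other cells, 6 of 8 astrocyte genes fell (such as *Aldoc*, *Glul* and *Aldh1l1*) and 9 of 10 oligodendrocyte genes rose (such as *Olig2*, *Sox10* and *Bcas1*).

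Of the 9 striatal projection neuron genes, all of which passed the filter on low values, *Rgs9* alone rose and none fell. The background was 519 of 14147 genes higher (3.67%) and 264 lower (1.87%). The members' median log2 difference was 0.28, and that of all tested genes was 0.07. The libraries of the groups did not overlap for *Rgs9*, *Drd2* and *Adora2a*, each higher in all Pen-2 cKO libraries, whereas 21.5% of tested genes were apart in that direction and 8.17% in the other. For the other 6 members the groups overlapped. Single libraries stood out across members: 7 of 9 had their lowest value in control replicate 1, and 6 of 9 their highest value in Pen-2 cKO replicate 3.

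**Figure D1:**
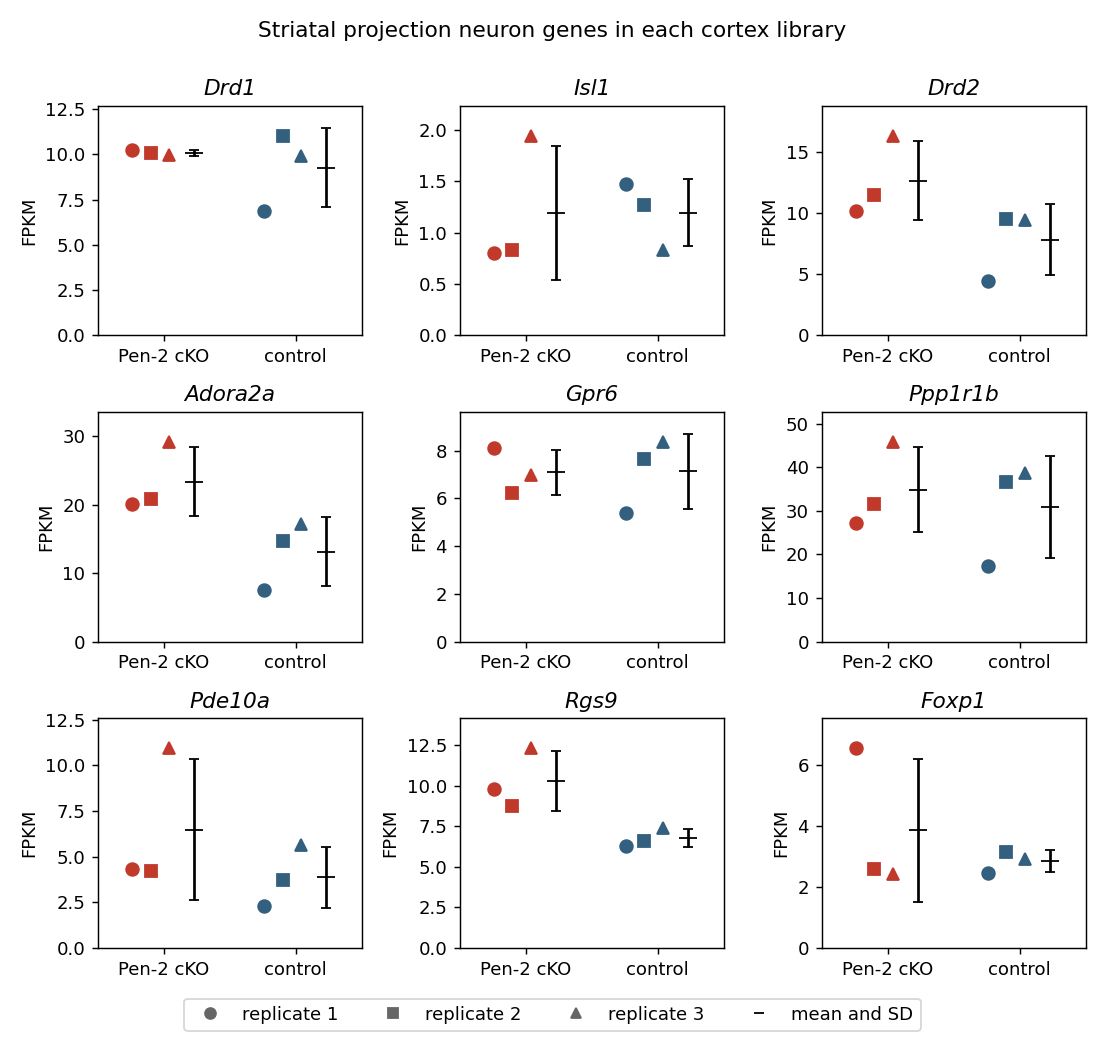
FPKM (vertical axes, from 0) of each member in the 3 Pen-2 cKO and 3 control libraries, marked by replicate number, with the mean and SD of each group beside the points. *Rgs9*, *Drd2* and *Adora2a* do not overlap between the groups, and control replicate 1 is the lowest point in 7 of the 9 panels.

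Neither direct pathway member passed the test, and the groups of both overlapped. *Drd1*, which encodes the D1 receptor (mm10 chromosome 13, 54051186 to 54055658), was 10.3, 10.1 and 9.94 FPKM in Pen-2 cKO libraries and 6.86, 11.0 and 9.92 FPKM in control libraries. Control replicate 1 was low and the other 5 libraries lay close together. The means were 10.1 ± 0.167 FPKM in Pen-2 cKO and 9.27 ± 2.16 FPKM in control cortex (SD, n = 3 each), a log2 difference of 0.15 with a 95% interval of -0.23 to 0.53 (limma adjusted p = 0.646). *Isl1*, a LIM homeodomain factor needed by direct pathway neurons and cholinergic neurons (chromosome 13, 116298281 to 116309689), was the lowest member. It was 0.797, 0.832 and 1.94 FPKM in Pen-2 cKO libraries and 1.48, 1.27 and 0.835 FPKM in control libraries. The single high Pen-2 cKO library was replicate 3, and the groups overlapped, with a log2 difference of -0.08 (interval -0.91 to 0.75, limma adjusted p = 0.921). The intervals of both genes include changes of either sign.

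Among the indirect pathway members, *Adora2a* and *Drd2* were higher in every Pen-2 cKO library without passing the test, and *Gpr6* was not. *Adora2a*, which encodes the A2a receptor (chromosome 10, 75316943 to 75334788), was 20.1, 20.8 and 29.1 FPKM in Pen-2 cKO libraries and 7.48, 14.7 and 17.1 FPKM in control libraries. The groups did not overlap, but control replicate 1 stood well under the other control libraries and Pen-2 cKO replicate 3 above its group. The means were 23.3 ± 5.03 FPKM in Pen-2 cKO and 13.1 ± 5.01 FPKM in control cortex (SD, n = 3 each). The log2 difference was 0.89 (SE 0.32, interval 0.12 to 1.66, limma adjusted p = 0.168).

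*Drd2*, which encodes the D2 receptor (chromosome 9, 49340662 to 49407214), was 10.2, 11.5 and 16.3 FPKM in Pen-2 cKO libraries and 4.45, 9.53 and 9.47 FPKM in control libraries. The lowest Pen-2 cKO library lay just above the highest control library. The log2 difference was 0.74 (SE 0.33, interval -0.05 to 1.53, limma adjusted p = 0.243). *Gpr6*, an orphan receptor of indirect pathway neurons that raises cyclic AMP (chromosome 10, 41069989 to 41072285), was 8.10, 6.22 and 6.98 FPKM in Pen-2 cKO libraries and 5.37, 7.65 and 8.36 FPKM in control libraries. The groups overlapped throughout, and the log2 difference was 0.01 (SE 0.18, interval -0.40 to 0.42, limma adjusted p = 0.9795).

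The members that both classes share included the one call. *Rgs9* encodes a GTPase-accelerating protein whose striatal form shortens dopamine receptor signalling (chromosome 11, 109225355 to 109298129). It was 9.82, 8.72 and 12.3 FPKM in Pen-2 cKO libraries and 6.29, 6.59 and 7.37 FPKM in control libraries, so that every Pen-2 cKO library was above every control library. The mean was 10.3 ± 1.83 FPKM in Pen-2 cKO and 6.75 ± 0.558 FPKM in control cortex (SD, n = 3 each), a log2 difference of 0.59 (SE 0.13, interval 0.28 to 0.90, limma adjusted p = 0.0492). The call lay at the threshold: with 1 library left out the log2 difference was 0.45 to 0.70 and the adjusted p 0.0544 to 0.156, and it was 0.0834 with median-ratio scaling and 0.0792 with upper-quartile scaling.

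*Ppp1r1b*, which encodes DARPP-32, the phosphoprotein that turns cyclic AMP signals into inhibition of protein phosphatase 1 (chromosome 11, 98348404 to 98357796), was the highest member. It was 27.2, 31.6 and 45.8 FPKM in Pen-2 cKO libraries and 17.5, 36.5 and 38.7 FPKM in control libraries. The spread within each group was wider than the distance between the means, and the log2 difference was 0.22 (SE 0.34, interval -0.60 to 1.05, limma adjusted p = 0.754). *Pde10a*, which encodes the phosphodiesterase that breaks down cyclic AMP and cyclic GMP in these neurons (chromosome 17, 8525372 to 8986648), was 4.33, 4.21 and 10.9 FPKM in Pen-2 cKO libraries and 2.30, 3.70 and 5.64 FPKM in control libraries. Replicate 3 was 2.56 times the mean of the other Pen-2 cKO libraries, and the log2 difference was 0.67 (SE 0.46, interval -0.42 to 1.76, limma adjusted p = 0.442).

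*Foxp1*, a forkhead transcription factor of striatal and cortical projection neurons (chromosome 6, 98925338 to 99522721), followed another course. It was 6.53, 2.60 and 2.41 FPKM in Pen-2 cKO libraries and 2.45, 3.15 and 2.92 FPKM in control libraries. Pen-2 cKO replicate 1 alone was high, and without it the log2 difference of 0.28 (SE 0.36, limma adjusted p = 0.700 with all libraries) became -0.17.

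Set in order by the mean over all 6 libraries, the levels ran from *Ppp1r1b* (32.9 FPKM) through *Adora2a* (18.2), *Drd2* (10.2), *Drd1* (9.68), *Rgs9* (8.51), *Gpr6* (7.11), *Pde10a* (5.18) and *Foxp1* (3.34) to *Isl1* (1.19). The ranges over libraries of neighbours in this order overlapped except for *Foxp1* and *Isl1*, and the order of the middle genes differed between the groups. In Pen-2 cKO cortex *Rgs9* (10.3 FPKM) stood above *Drd1* (10.1 FPKM), and in control cortex *Drd1* (9.27 FPKM) stood above *Drd2* (7.82 FPKM) and *Gpr6* (7.13 FPKM) above *Rgs9* (6.75 FPKM).

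The start-site sequences of 7 members were found in RefSeq (build GRCm38.p6), and none for *Ppp1r1b* or *Adora2a*. The 250 bases before the start are shown for the member that rose, *Rgs9* (chr11:109298182-109298431, minus strand), for *Drd2*, whose groups did not overlap (chr9:49340153-49340402, plus strand), and for *Drd1* and *Gpr6*, which had the smallest standard errors among the members that did not pass (chr13:54054781-54055030 and chr10:41072291-41072540, both minus strand; for *Drd1* the downstream of 2 listed starts). These windows hold no exon of the GENCODE M21 annotation. Capitals mark matches, on either strand, to TGACGTCA (the cyclic AMP response element, CRE), to the CRE core TGACG, to the GC box GGGCGG, to TATAAA or to the forkhead core TGTTTAC.
Rgs9: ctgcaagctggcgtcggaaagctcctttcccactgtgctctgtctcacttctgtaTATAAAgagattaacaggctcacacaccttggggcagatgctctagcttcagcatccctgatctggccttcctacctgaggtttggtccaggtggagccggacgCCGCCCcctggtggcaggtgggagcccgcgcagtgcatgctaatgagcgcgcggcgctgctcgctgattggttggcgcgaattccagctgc
Drd2: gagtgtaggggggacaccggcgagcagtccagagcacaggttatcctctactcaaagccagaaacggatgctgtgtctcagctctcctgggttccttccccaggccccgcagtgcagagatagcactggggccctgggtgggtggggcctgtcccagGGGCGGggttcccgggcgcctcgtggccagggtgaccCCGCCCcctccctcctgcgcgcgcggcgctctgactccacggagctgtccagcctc
Drd1: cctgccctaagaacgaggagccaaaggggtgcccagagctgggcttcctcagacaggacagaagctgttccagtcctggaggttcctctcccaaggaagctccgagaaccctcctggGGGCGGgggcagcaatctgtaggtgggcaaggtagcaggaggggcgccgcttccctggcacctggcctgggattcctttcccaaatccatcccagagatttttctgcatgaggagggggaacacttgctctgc
Gpr6: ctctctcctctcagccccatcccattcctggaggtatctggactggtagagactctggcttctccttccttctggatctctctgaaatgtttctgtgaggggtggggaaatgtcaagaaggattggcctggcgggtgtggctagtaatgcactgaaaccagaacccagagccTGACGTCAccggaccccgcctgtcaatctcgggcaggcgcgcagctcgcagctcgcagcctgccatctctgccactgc
*Gpr6* held the full CRE 78 bases before the start, in which the CRE core matches lie too, and 1.55% of the 32851 promoters of the same length in the table held one. *Rgs9* held TATAAA 195 bases before the start (in 12.4% of promoters) and a GC box at 91 bases. *Drd2* held GC boxes at 93 and 56 bases and the downstream start of *Drd1* one at 133 bases, a match found in 32.7% of promoters. The window of the upstream *Drd1* start, which overlaps 1 annotated exon and is not shown, held no match to any of these motifs. A CRE core was found in 17.8% of promoters and the forkhead core in 3.17%, and neither stood in the windows of *Rgs9*, *Drd2* and *Drd1*.

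The library pattern of the members was shared by other genes of the striatum. With each gene centred on its own mean over the 6 libraries, the median deviation of the 9 members on the log2 scale was 0.10, 0.01 and 0.56 in Pen-2 cKO replicates 1, 2 and 3 and -0.48, 0.01 and 0.02 in control replicates 1, 2 and 3. Over all tested genes these medians ran from -0.06 to 0.04. The summed level of the members was 97.3, 96.5 and 135.7 FPKM in the Pen-2 cKO libraries and 54.1, 94.2 and 100.3 FPKM in the control libraries. Pen-2 cKO replicate 3 and control replicate 1 thus stood apart in opposite directions, and the other 4 libraries lay between 94.2 and 100.3 FPKM. These close sums do not mean that each member was level, since opposite differences cancel in them. In Pen-2 cKO replicates 1 and 2 *Adora2a* was 20.1 and 20.8 FPKM, against 14.7 and 17.1 FPKM in control replicates 2 and 3. In the same libraries *Ppp1r1b* was 27.2 and 31.6 FPKM against 36.5 and 38.7 FPKM. Among all tested genes, 18.2% had their lowest value in control replicate 1 and 26.7% their highest in Pen-2 cKO replicate 3.

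**Figure D2:**
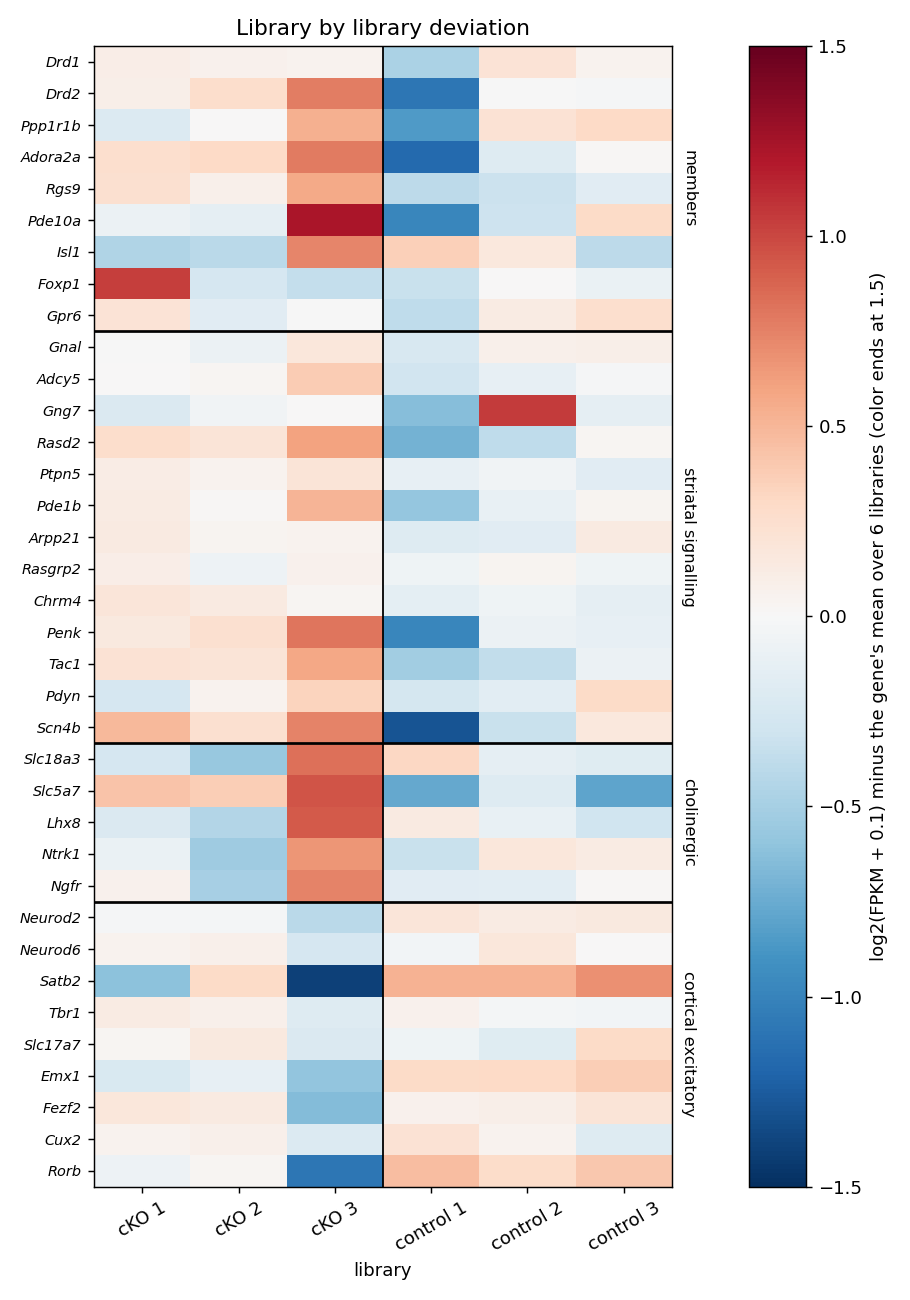
Color gives log2(FPKM + 0.1) minus the gene's mean over the 6 libraries, for the 9 members, 13 other striatal signalling genes, 5 cholinergic neuron genes and 9 cortical excitatory neuron genes, with the Pen-2 cKO libraries left of the control libraries. Control replicate 1 is low for most striatal genes, and Pen-2 cKO replicate 3 is high for most striatal and all 5 cholinergic genes and lowest for all 9 cortical excitatory genes.

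Of 14 further striatal signalling genes tested, *Tac1* alone rose and none fell (median log2 difference 0.26, against 0.07 for all tested genes). *Tac1*, which encodes the precursor of substance P, a peptide of direct pathway neurons and of some other neurons, was 7.20, 7.05 and 9.31 FPKM in Pen-2 cKO libraries and 4.26, 4.74 and 5.78 FPKM in control libraries, a log2 difference of 0.66 (SE 0.15, limma adjusted p = 0.0492). The groups of 8 of the 14 genes did not overlap, each higher in Pen-2 cKO, as was the case for 21.5% of all tested genes. Between 0 and 2 of the 14 rose with 1 library left out, 0 with median-ratio or upper-quartile scaling, and 3 with equal sums of FPKM. In 12 of the 14 the lowest library was control replicate 1, and in 10 the highest was Pen-2 cKO replicate 3. *Penk*, the enkephalin precursor of indirect pathway neurons, was 42.9, 45.7 and 67.7 FPKM in Pen-2 cKO libraries and 19.7, 36.4 and 35.6 FPKM in control libraries (limma adjusted p = 0.166). *Scn4b*, a sodium channel subunit, had the largest difference of the list, 0.98 on the log2 scale (SE 0.35, limma adjusted p = 0.166). *Gng7*, the G protein subunit that pairs with the striatal Gα of *Gnal*, was an exception, at 42.6 FPKM in control replicate 2 and 13.1 to 20.6 FPKM in the other libraries.

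None of the 8 striatal transcription factor genes tested passed, of 10 in the list, at a median log2 difference of 0.19. *Bcl11b*, which encodes CTIP2, a factor of striatal neurons and of deep cortical layers, was 16.2, 14.5 and 18.3 FPKM in Pen-2 cKO libraries and 11.9, 15.9 and 16.7 FPKM in control libraries. *Rarb*, a retinoic acid receptor of striatal neurons, was 9.98, 8.75 and 13.7 FPKM in Pen-2 cKO libraries and 5.55, 9.29 and 7.90 FPKM in control libraries, a log2 difference of 0.51 (SE 0.22, limma adjusted p = 0.233). In 7 of the 8 genes the highest library was Pen-2 cKO replicate 3.

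**Figure D3:**
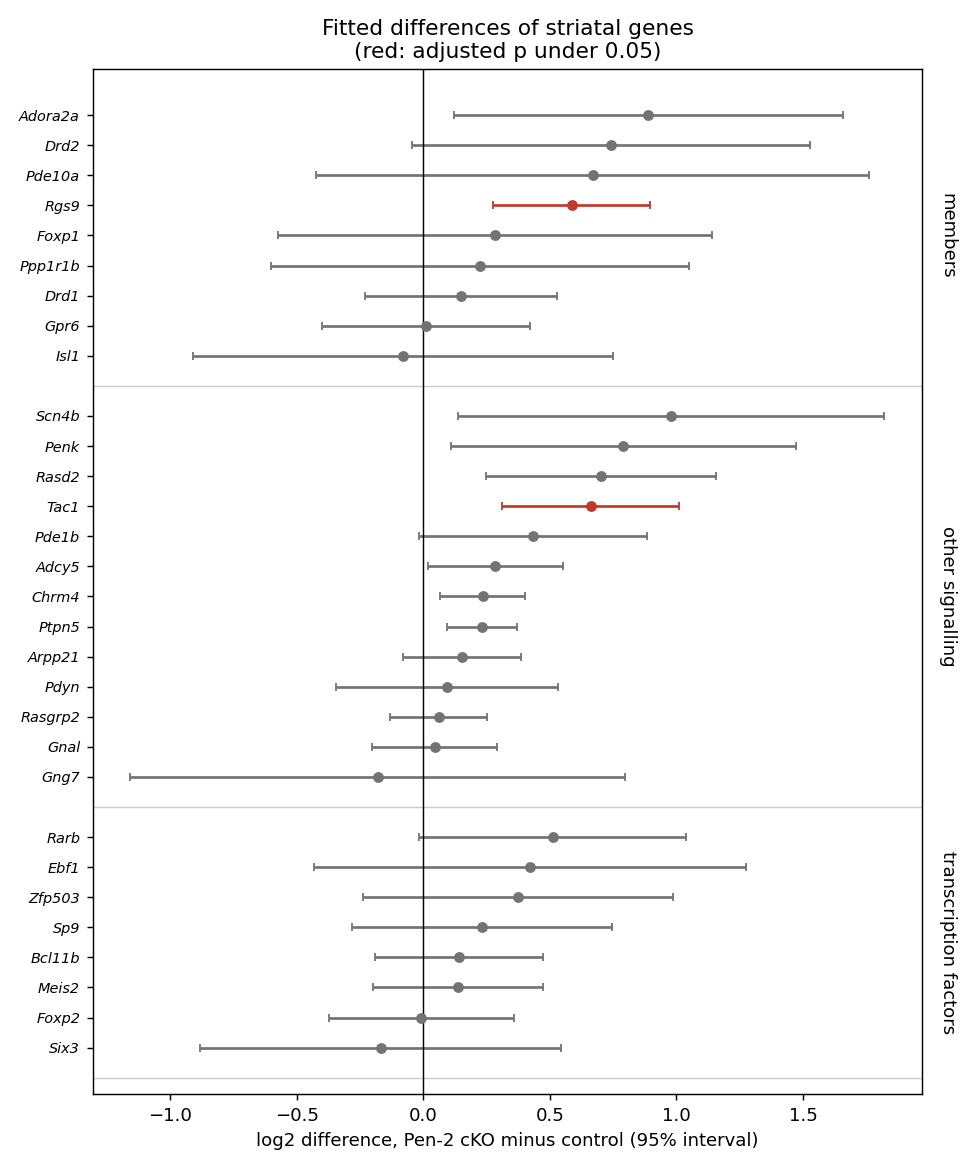
Log2 differences (Pen-2 cKO minus control, horizontal axis) with 95% intervals for the members, 13 other striatal signalling genes and the 8 striatal transcription factors that were tested. *Rgs9* and *Tac1*, in red, are the genes with an adjusted p under 0.05, and 8 of the 9 member differences are above 0 (7 of 9 with median-ratio or upper-quartile scaling, where *Gpr6* is below 0), as are 63.6% of those of all tested genes.

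By a fixed rule, the genes outside the members whose values over the 6 libraries were most like the members' mean profile included *Pde1b*, *Ankrd63*, *Strip2* and *Snx8*, with Pearson correlations from 0.989 to 0.978 among 12349 genes ranked. These correlations are over 6 libraries that share their genotype groups and their dissections, and are a description. *Pde1b*, a calcium-activated phosphodiesterase, was 53.3, 49.9 and 70.1 FPKM in Pen-2 cKO libraries and 32.8, 45.5 and 50.8 FPKM in control libraries. *Pde1b* belongs to the striatal signalling list, and 6 of the 19 ranked genes from that list and the striatal transcription factor list stood among the first 100. The choroid plexus gene *Ttr* ranked 12 of 12349.

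Ratios between members within a library do not depend on scaling between libraries. The pairs given here were chosen after their values were seen. *Adora2a* over *Drd2* was 1.97, 1.81 and 1.78 in the Pen-2 cKO libraries and 1.68, 1.55 and 1.81 in the control libraries, although *Adora2a* alone varied 3.89-fold and *Drd2* 3.68-fold over the 6 libraries. *Penk* over *Drd2* was 4.22, 3.98 and 4.14 in the Pen-2 cKO libraries and 4.43, 3.82 and 3.76 in the control libraries. The indirect pathway genes *Adora2a*, *Drd2* and *Penk* thus stood in similar proportions in all 6 libraries. *Gpr6* over *Drd2* was 0.796, 0.542 and 0.427 in the Pen-2 cKO libraries and 1.21, 0.803 and 0.883 in the control libraries. *Drd2* over *Drd1* was 0.991, 1.14 and 1.64 in the Pen-2 cKO libraries and 0.649, 0.864 and 0.955 in the control libraries. The groups did not overlap in either of these last ratios, by a margin that was small beside the range within each group.

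Genes of other tissue next to the cortex, and of the cortex itself, were set beside the libraries that stood apart. In control replicate 1, where 7 of 9 members were lowest, the lowest value was found for 0 of 5 cholinergic, 0 of 9 cortical excitatory, 0 of 5 neuroblast, 1 of 3 thalamus, 2 of 6 layer 6 and subplate and 3 of 5 choroid plexus genes tested. Among genes of other cells, control replicate 1 was lowest for 7 of 10 oligodendrocyte, 3 of 5 microglial and 2 of 4 endothelial genes. It was lowest for 0 of 4 meningeal fibroblast and 0 of 8 astrocyte genes, and for 18.2% of all tested genes. Of 5 basal forebrain cholinergic genes tested, all had their highest value in Pen-2 cKO replicate 3, and 1 rose, *Slc5a7*, the choline transporter. It was 1.61, 1.54 and 2.34 FPKM in Pen-2 cKO libraries and 0.643, 1.011 and 0.629 FPKM in control libraries, a log2 difference of 1.17 (SE 0.24, limma adjusted p = 0.0353), and no gene of the list passed with any 1 library left out. The summed level of the 6 cholinergic genes was 7.20, 5.73 and 13.4 FPKM in Pen-2 cKO libraries and 6.64, 6.75 and 6.56 FPKM in control libraries, and none of them was at 0 in all libraries. *Isl1*, the member that cholinergic neurons share, also had its highest value in Pen-2 cKO replicate 3.

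All 9 cortical excitatory genes had their lowest value in Pen-2 cKO replicate 3, the library in which most striatal genes were highest, whereas 14.2% of all tested genes did. Of these 9, *Emx1*, a transcription factor of the dorsal forebrain, fell, at 6.31, 6.77 and 4.85 FPKM in Pen-2 cKO libraries and 9.005, 9.09 and 9.54 FPKM in control libraries (log2 difference -0.63, SE 0.13, limma adjusted p = 0.0343). With 1 library left out, 0 to 2 of the 9 fell. Among 6 genes of layer 6 and the subplate, where *Drd1* and *Ppp1r1b* are also expressed, *Cplx3*, a complexin of subplate neurons, fell, at 6.74, 6.59 and 5.004 FPKM in Pen-2 cKO libraries and 8.93, 9.88 and 10.4 FPKM in control libraries (log2 difference -0.67, SE 0.13, limma adjusted p = 0.0287). The median of the layer 6 and subplate list was 0.04, and its genes were divided in Pen-2 cKO replicate 3. There *Syt6* and *Nxph4* had their highest value, and *Cplx3* and *Ntsr1* their lowest. *Syt6* was 1.68, 1.74 and 6.20 FPKM in Pen-2 cKO libraries and 3.28, 2.70 and 1.55 FPKM in control libraries.

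None of 5 choroid plexus genes tested passed, but all 5 were highest in Pen-2 cKO replicate 3. Their median log2 difference was 0.96, against 0.28 for the members, and all 5 differences were positive, as were 63.6% over all tested genes. The groups of 3 of the 5 did not overlap, each higher in Pen-2 cKO, against 21.5% of all tested genes. *Ttr*, the transthyretin of choroid epithelium, was 324, 182 and 877 FPKM in Pen-2 cKO libraries and 33.1, 103.5 and 178 FPKM in control libraries. It was lowest in control replicate 1, as 7 of the members were. *Aqp1*, the water channel of that epithelium, was 3.61, 2.39 and 6.30 FPKM in Pen-2 cKO libraries and 1.21, 1.015 and 1.65 FPKM in control libraries (limma adjusted p = 0.0502). None of 5 neuroblast genes of the subventricular zone passed (median -0.03), with *Dlx2* at 4.26, 4.02 and 5.63 FPKM in Pen-2 cKO libraries and 5.49, 5.35 and 4.86 FPKM in control libraries and *Dlx1* at 4.04 to 5.49 FPKM in Pen-2 cKO and 3.60 to 5.43 FPKM in control cortex. None of the 3 thalamus genes tested passed, of 7 in the list (median -0.17). *Slc17a6* was 14.5 to 17.7 FPKM in Pen-2 cKO and 17.0 to 19.9 FPKM in control cortex. *Rgs16* was 3.52 to 4.75 FPKM in Pen-2 cKO and 2.99 to 3.29 FPKM in control cortex. *Gbx2*, *Lhx9*, *Tcf7l2* and *Lef1* were under the filter on low values and were not tested, so the list is a limited check on thalamus. The part of tissue from these neighbouring regions in the members' levels was not tested.

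The oligodendrocyte genes, which are dense in white matter under the cortex, had a summed level of 157, 208 and 225 FPKM in Pen-2 cKO libraries and 37.2, 39.8 and 53.4 FPKM in control libraries. The groups did not overlap in any of the 10 genes, each higher in Pen-2 cKO. That was so for 3 of the 9 members and 21.5% of all tested genes. Pen-2 cKO replicate 3 was highest for 8 of the 10 oligodendrocyte genes, against 6 of 9 members and 26.7% of all tested genes. It was also highest for 3 of 5 microglial, 2 of 4 endothelial, 3 of 4 meningeal fibroblast and 0 of 8 astrocyte genes. Of 4 meningeal fibroblast genes *Lum*, *Dcn* and *Col3a1* rose, of 4 endothelial genes *Cdh5* rose (0 of 4 with median-ratio or upper-quartile scaling and 2 of 4 with equal sums of FPKM), and none of 5 microglial genes passed, *Csf1r* being 6.83 to 11.7 FPKM in Pen-2 cKO and 6.47 to 7.16 FPKM in control cortex and *Cx3cr1* 4.52 to 6.52 FPKM in Pen-2 cKO and 3.59 to 4.59 FPKM in control cortex. Their part in the members' levels was not tested.

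The closest relatives of the members were genes of the same receptor, RGS, phosphodiesterase and transcription factor families. Of 14 tested, 2 were lowest in control replicate 1 and 1 was highest in Pen-2 cKO replicate 3. The shares over all tested genes were 18.2% and 26.7%, and 14 genes are too few to set the relatives apart from these. *Foxp2* is counted here and among the striatal transcription factors. The median log2 difference of these relatives was -0.06. *Rgs6*, a relative of *Rgs9* in the R7 group of RGS proteins, fell. It was 4.26, 2.96 and 2.996 FPKM in Pen-2 cKO libraries and 5.65, 5.48 and 5.53 FPKM in control libraries, a log2 difference of -0.71 (SE 0.15, limma adjusted p = 0.0377). With 1 library left out, 0 or 1 of the 14 relatives fell.

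The other R7 genes and their shared partner did not pass. *Rgs7* was 8.72, 8.63 and 7.54 FPKM in Pen-2 cKO libraries and 9.55, 9.84 and 8.40 FPKM in control libraries, and *Rgs11* was 4.91, 4.99 and 3.70 FPKM in Pen-2 cKO libraries and 3.68, 3.25 and 2.95 FPKM in control libraries, without overlap (log2 difference 0.44, SE 0.15, limma adjusted p = 0.128). *Gnb5*, the Gβ5 subunit that stabilizes R7 proteins, was 63.2, 57.2 and 61.1 FPKM in Pen-2 cKO libraries and 57.4, 63.6 and 65.3 FPKM in control libraries. *Rgs9* over *Rgs6* was 2.30, 2.94 and 4.10 in the Pen-2 cKO libraries and 1.11, 1.20 and 1.33 in the control libraries. *Rgs9* was higher and *Rgs6* lower in every Pen-2 cKO library, so this ratio could not overlap and adds no further result. Among the adenosine receptor genes, *Adora1* was 9.43, 9.90 and 7.96 FPKM in Pen-2 cKO libraries and 9.65, 13.7 and 11.2 FPKM in control libraries, and *Adora2b* was 1.19, 0.955 and 1.27 FPKM in Pen-2 cKO libraries and 1.88, 2.14 and 1.70 FPKM in control libraries (log2 difference -0.70, limma adjusted p = 0.0502). The D1-like receptor gene *Drd5* was 0.414 to 0.693 FPKM in Pen-2 cKO and 0.533 to 0.689 FPKM in control cortex, and *Isl2* was listed at 0 in all 6 libraries.

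The members were also fitted with Pen-2 cKO replicate 3 and control replicate 1 both left out. These libraries were picked after seeing the values, as the one with the highest and the one with the lowest summed level of the members, so a lower median difference without them follows from the choice and is given as a description. None of the 9 members passed in that fit (limma, 2 against 2 libraries, with 389 genes passing over the whole table), and their median log2 difference was -0.04, against 0.28 with all libraries. *Adora2a* then differed by 0.36, *Drd2* by 0.18, *Rgs9* by 0.40, *Pde10a* by -0.10, *Ppp1r1b* by -0.36, *Drd1* by -0.04, *Isl1* by -0.31, *Gpr6* by -0.17 and *Foxp1* by 0.44. The differences of *Ppp1r1b*, *Foxp1*, *Isl1* and *Gpr6* were thus larger in size than with all libraries, and those of the other 5 members smaller.

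**Figure D4:**
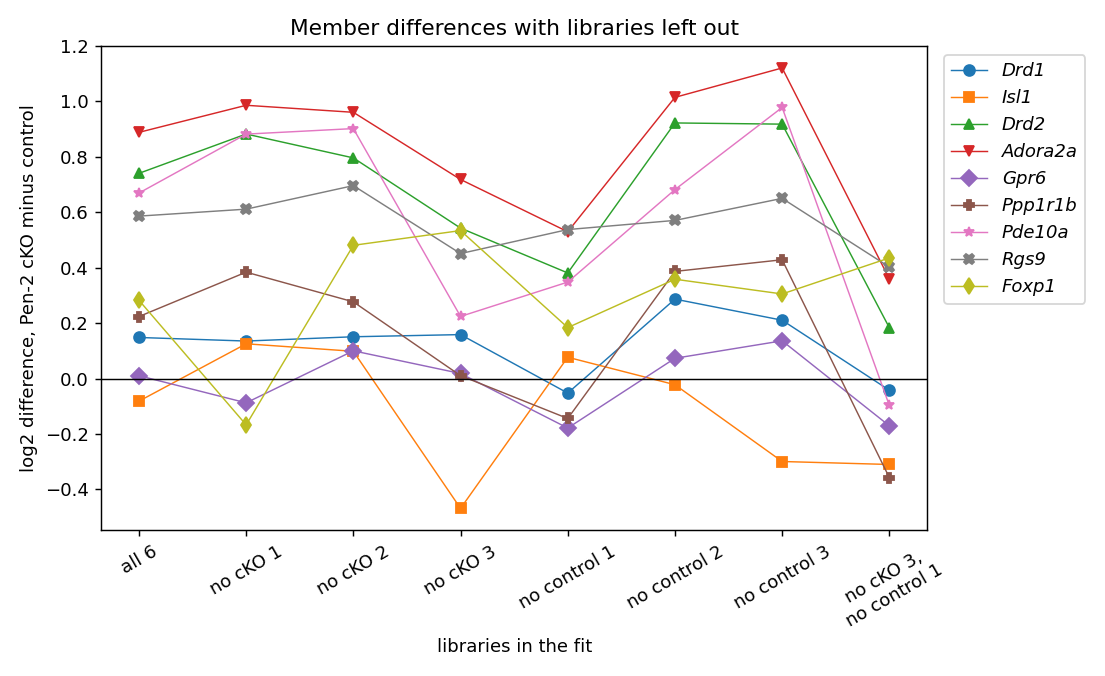
Log2 difference of each member (Pen-2 cKO minus control, vertical axis) with all 6 libraries, with each library left out in turn, and without Pen-2 cKO replicate 3 and control replicate 1. *Ppp1r1b* is at -0.14 without control replicate 1 and -0.36 without both, and *Foxp1* is at -0.17 without Pen-2 cKO replicate 1. The sign of *Adora2a*, *Drd2* and *Rgs9*, whose groups do not overlap, cannot turn when libraries are left out.

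In the authors' deposited table, whose test and group values come without a stated method, *Adora2a* was the 1 of 9 members marked as up. Of all 34745 genes, 593 were so marked and 112 were marked as down, with no member among the latter. The authors' deposited table gives *Adora2a* 28.5 FPKM in Pen-2 cKO and 12.9 FPKM in control cortex, with a p-value of 0.0289 and a q-value of 0.00339. It gives *Rgs9* 11.3 FPKM in Pen-2 cKO and 6.80 FPKM in control cortex, with a q-value of 0.00480 in the authors' deposited table and no mark. For *Drd2* the authors' deposited table has 14.8 FPKM in Pen-2 cKO and 7.61 FPKM in control cortex, with a q-value of 0.0543. These group values are not the means of the 3 library values deposited beside them.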

How the data were processed

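The libraries were made from total RNA of cortex using a VAHTS Universal V6 preparation, as the labels' protocols state. The authors deposited FPKM per gene and library, per the file headers, with mm10 as the build, per the submitters' processing notes. Aligner, counter, annotation and strand setting are not given in the sources used. Counts were not recovered, so no count test was run. The deposited p-values and q-values come without a stated test. The 6 per-library tables equal the series table, and 27 symbols turned into dates were restored by gene ID.

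The 14147 genes reaching 0.5 FPKM in 3 or more libraries were tested with limma 3.58.1 in R 4.3.3 (mean-variance trend, robust) on log2(FPKM + 0.1) of the deposited FPKM, with group as the only term and Benjamini-Hochberg adjustment over all of them, called at 0.05. This log2 scale understates the change of low genes. The steps were checked on simulated data. Depth was read from the smallest FPKM steps of genes with 1 GENCODE M21 transcript. Gene ranges are those of the deposited table, and 27699 were identical to M21.

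The members and the 14 other gene lists were chosen with earlier results of these data known. Named genes were the members, up to 3 called genes of each list by smallest p or else the 2 with the highest mean, and the 5 most like the members' profile, of which 1 is not reported here. Others, such as *Penk*, *Scn4b*, *Gng7*, *Rgs7*, *Rgs11*, *Gnb5*, *Adora1*, *Adora2b*, *Drd5* and *Isl2*, were chosen after their values were seen. Of 125 list entries, 123 were used: *Dlx6os1* stands for more than 1 gene ID and was left out, and the other entry was not analysed here. The other steps used pandas 2.3.3, NumPy 2.4.6, SciPy 1.17.1 and matplotlib 3.10.9 under Python 3.11.15.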

Additional observations from a re-analysis of the deposited data

How the results depend on the processing

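The count of genes passing over the whole table was 783, against 499 with no filter on low values, 456 with the replicate block and 389 without both Pen-2 cKO replicate 3 and control replicate 1 (a choice made after seeing the data), and it ran from 220 to 842 with 1 library left out. The count of members passing was 1. It was 0 with no filter, with median-ratio or upper-quartile scaling, with no mean-variance trend, with no robust estimation, with each 1 library left out and without both libraries. The log2 difference of *Rgs9* was 0.59 with no filter, with no trend and with no robust estimation, 0.52 with either scaling, 0.45 to 0.70 with 1 library left out and 0.40 without both. The members' median log2 difference was 0.18 to 0.48 with 1 library left out and -0.042 without both.

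Directions turned for 6 members that had not passed. With 1 library left out the log2 difference ran from -0.052 to 0.29 for *Drd1*, -0.14 to 0.43 for *Ppp1r1b*, 0.22 to 0.98 for *Pde10a*, -0.47 to 0.13 for *Isl1*, -0.17 to 0.53 for *Foxp1* and -0.18 to 0.14 for *Gpr6*. Without both libraries it was -0.042 for *Drd1*, -0.36 for *Ppp1r1b*, -0.10 for *Pde10a* and -0.17 for *Gpr6*, and *Gpr6* was -0.060 with median-ratio and -0.057 with upper-quartile scaling. *Drd2* and *Adora2a*, whose groups do not overlap, did not pass in any of these fits. The cause of these changes was not tested.

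Over all tested genes, same-numbered samples did not deviate together (correlations 0.061, 0.012 and 0.1001), so the numbers were not taken as pairs. Members differed in this. The replicate block lowered the SE from 0.46 to 0.17 for *Pde10a*, 0.32 to 0.18 for *Adora2a* and 0.33 to 0.17 for *Drd2*. For *Ppp1r1b* it went from 0.34 to 0.16. The SE rose for *Isl1* (0.35 to 0.40) and *Gpr6* (0.176 to 0.190). With the block the limma adjusted p was 0.0691 for *Adora2a* and 0.0951 for *Drd2*. With the replicate block 1 member passed, *Rgs9*, at a log2 difference of 0.59. With 3 libraries a group and no counts, the precision of low genes such as *Isl1* is limited by the spread between libraries.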
